A study of Arabidopsis thaliana with 12 samples.

Results

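Darkness changed 29 genes of Arabidopsis leaves by a different amount in the miRNA-deficient mutant dcl1-9 than in the wild type (WT), and most of them fell into 2 patterns. In the first, genes of sulfur deficiency and of other pathways in light stood up to 49.5-fold above the WT level in dcl1-9 (22.1-fold with 16 added to every intensity) and came down to near the WT level in darkness. In the second, genes that darkness raised in the WT reached lower levels in dark-treated dcl1-9 leaves. Their light levels did not differ past the test. Among them were At2g25770 and At5g60260, called in all 12 fits with 1 array left out, and the phosphodiesterase GDPD2, called in 10. The cytokinin-degrading enzyme CKX5 and the heat shock factor HSFA7A also belonged here, but were called in only 1 and 2 of these fits. Genes on a list of aliphatic glucosinolate synthesis moved opposite to the sulfur deficiency genes, with lower levels in dcl1-9 in light. None of them passed the interaction test singly. That test left the replicate numbers out, and with the number as a block 77 genes passed, all 29 among them.

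The quantity described is the difference between the dark responses of the genotypes. It is the log2 change from light to darkness in dcl1-9 minus the log2 change in the WT, named the interaction here, and it was computed for all 27827 probe sets, 1 per gene, over all 12 arrays of the study. The same number is the log2 difference of dcl1-9 from the WT in darkness minus that in light, so an interaction can come from the light level, from the dark level or from both. Of the 27827 probe sets 29 (0.104%) passed limma at an adjusted p of 0.05, 25 with a lower interaction in dcl1-9 (0.0898%) and 4 with a higher one (0.0144%). At an unadjusted p under 0.05 there were 1595 (5.73%), 874 lower (3.14%) and 721 higher (2.59%).

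The arrays held leaf RNA of 4 groups, 3 biological replicates each, and series and paper asked with them how a lack of miRNAs bears on the response to starvation. Leaves 5 to 7 of plants aged 4 to 5 weeks by the labels were detached and floated on water for 6 h, in light of 100 µE or in darkness begun 2 h after lights on, at 22 °C. The WT was Col-0. The mutant dcl1-9 carries a T-DNA insertion in DCL1, came from ecotype Wassilewskija and was backcrossed 5 times to Col-0. Homozygous mutants were picked by their phenotype among the progeny of heterozygotes, and they are weak in DCL1 function rather than without it. Detachment and water were shared by all groups, as was growth under 12 h of light and 12 h of darkness. The starting hour is given for the dark incubation only, so a shared hour of the day cannot be checked. The values are linear intensities, and the number of arrays limits their precision. Array medians lay between 29.96 and 34.54, and 34.8% of probe sets had a mean under 20, where fold-changes are least certain, so folds over such low levels are given again with 16 added to every value where that moved them by more than 1.5 times. In bulk leaf RNA, fewer cells of a type and less RNA per cell cannot be told apart.

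DCL1 is the RNase III enzyme that cuts miRNA precursors, and plants with weak DCL1 hold less of most miRNAs. When darkness or hypoxia lowers the energy supply, the kinase SnRK1 raises genes of catabolism and lowers genes of biosynthesis and growth. Leaves of Arabidopsis store much of their spare sulfur in glutathione and in glucosinolates, the defence compounds of the cabbage family. When sulfate runs short, a set of deficiency genes is switched on that breaks these stores down and slows the making of new glucosinolates.

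DCL1 itself (At1g01040) stood at 21.4, 21.5 and 17.1 in WT light, 26.6, 21.3 and 23.1 in WT dark, 48.3, 41.8 and 36.5 in dcl1-9 light and 67.4, 64.5 and 51.5 in dcl1-9 dark. It was higher in every mutant array than in any WT array, in light and in darkness, and its interaction was 0.29 (SE 0.26, adjusted p = 1). A transcript that can still be made from a gene with an insertion does not check the genotype. The reference genes EIF4 (At3g13920) and ACT2 (At3g18780) had interactions of 0.07 and -0.02 (adjusted p = 1.0 each). Over all probe sets the median interaction was 0.001, with an interquartile range from -0.219 to 0.212 and a median SE of 0.316. The median log2 difference of dcl1-9 from the WT was -0.138 in light and -0.123 in darkness, and medians of gene lists are given relative to these.

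To tell light from dark levels, the genotype differences in light and in darkness were set side by side for each of the 29 genes. A gene was assigned to the condition in which its genotype difference was larger in size. The assignment was taken as settled where the mean of both differences also passed limma (26.1% of all probe sets did), a contrast that is orthogonal to the interaction in this balanced design. By size 19 genes belonged to the light level and 10 to the dark level, and 15 and 9 of these were settled, which leaves 5 genes that are larger on one side without being settled. In size the dark response was larger in dcl1-9 for 15 genes and smaller for 14. The number of calls changed when arrays were left out, while the interaction of each of the 29 genes kept 81.1 to 113% of its size. Leaving out dcl1-9 dark replicate 1 brought the number of calls from 29 to 8 (6 light, 2 dark level). Without dcl1-9 light replicate 3 it was 11 (9 and 2), 10 of them among the 29. Leaving out WT dark replicate 1 gave 11 (7 and 4), WT light replicate 1 gave 14 (10 and 4) and dcl1-9 dark replicate 2 gave 18 (14 and 4). Each of the other arrays gave 22 to 39 calls, which held 19 to 27 of the 29. The direction of the interaction was kept by all 29 in each of these fits, which the choice of genes by this interaction favors.

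**Figure D1:**
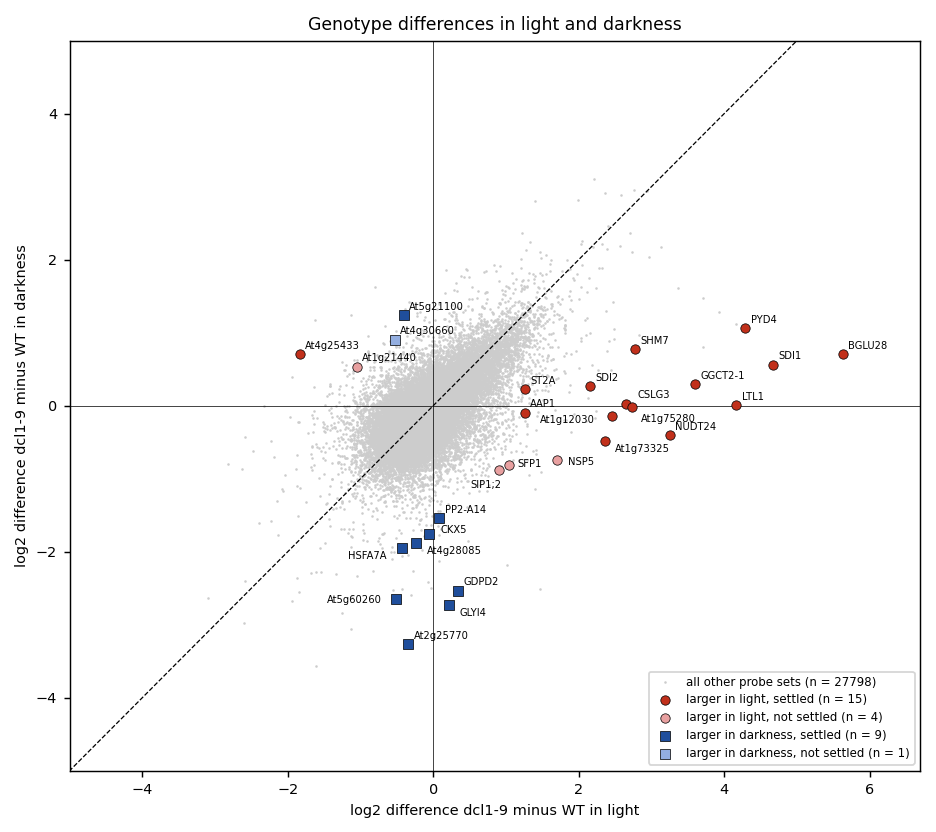
Each point is 1 probe set, with the log2 difference of dcl1-9 from the WT in light on the horizontal axis and in darkness on the vertical axis. Colored points are the 29 genes past the interaction test, red for the 19 whose difference was larger in light and blue for the 10 whose difference was larger in darkness (paler where not settled), and the dashed line marks equal differences. The red points of BGLU28, SDI1, PYD4 and LTL1 lie more than 4 to the right with dark differences of 0.71, 0.56, 1.06 and 0.01, and the blue point of At2g25770 lies lowest at -3.27.

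Genes of the light level were nearly all higher in dcl1-9. Of the 15 settled genes, 14 were higher and 1 lower in dcl1-9 in light, with a median log2 difference of 2.74 in light and 0.23 in darkness. These genes were picked by the interaction, by the larger difference being that in light and by the mean difference, so the counts that follow describe that choice and are no support for it. All 15 were called between the genotypes in light (9.25% of all probe sets were, 5.92% higher and 3.33% lower in dcl1-9) and 1, SHM7, in darkness (7.46%, 4.45% higher and 3.02% lower). Their arrays did not overlap between the genotypes for 15 of 15 in light and 3 of 15 in darkness (32.6% and 32.1% of all probe sets). In the WT the dark response of 9 of the 14 higher genes did not pass limma (27.4% of all probe sets passed), while 12 of the 14 fell in dcl1-9 (12.9% of all probe sets fell). The median dark response of the 15 genes was -0.20 in the WT and -3.19 in dcl1-9 on the log2 scale.

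Of those 14 genes, 5 belong to the sulfur deficiency list. BGLU28 (At2g44460), a beta-glucosidase that breaks glucosinolates down under sulfur deficiency, stood at 10.3, 14.2 and 13.0 in WT light, 16.9, 5.93 and 12.5 in WT dark, 862, 472 and 567 in dcl1-9 light and 18.6, 19.3 and 15.2 in dcl1-9 dark. The dcl1-9 light arrays lay far above the other 9, which stayed under 20 and overlapped between the genotypes in darkness. In light BGLU28 was 49.5-fold higher in dcl1-9 (log2 5.63, SE 0.32, adjusted p = 1.3e-06), or 22.1-fold with 16 added, and the interaction was -4.93 (SE 0.46, adjusted p = 4.0e-04). SDI1 (At5g48850), a sulfur deficiency-induced repressor of aliphatic glucosinolate synthesis, was measured at 11.5, 12.2 and 25.4 in WT light, 18.0, 15.9 and 16.2 in WT dark, 502, 328 and 365 in dcl1-9 light and 27.6, 32.7 and 16.5 in dcl1-9 dark. Only the mutant leaves kept in light were high, at 25.6 times the WT level (12.8 with 16 added), and darkness lowered them 15.9-fold (9.94 with 16 added, interaction -4.12, SE 0.43, adjusted p = 0.0012).

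GGCT2-1 (At5g26220), a gamma-glutamyl cyclotransferase that degrades glutathione, was measured at 79.0, 48.4 and 86.2 in WT light, 48.7, 28.5 and 39.6 in WT dark, 1243, 592 and 801 in dcl1-9 light and 45.9, 46.3 and 47.6 in dcl1-9 dark. Here too the mutant light arrays stood apart, and the dark arrays of the genotypes overlapped. The light difference was 12.1-fold and the interaction -3.31 (SE 0.39, adjusted p = 0.004). SHM7 (At1g36370), of the serine hydroxymethyltransferase family of folate metabolism, stood at 165, 129 and 155 in WT light, 167, 188 and 122 in WT dark, 1292, 839 and 958 in dcl1-9 light and 300.0, 307 and 207 in dcl1-9 dark. It remained above the WT in darkness without overlap, by log2 0.77 (SE 0.21, adjusted p = 0.039), against 2.77 in light, so the interaction of -1.998 (SE 0.30, adjusted p = 0.017) lowered the difference without closing it. SDI2 (At1g04770), the paralog of SDI1, stood at 19.6, 11.9 and 16.04 in WT light, 24.8, 20.1 and 19.3 in WT dark, 76.7, 54.3 and 79.8 in dcl1-9 light and 29.5, 26.4 and 21.3 in dcl1-9 dark, with an interaction of -1.90 (SE 0.32, adjusted p = 0.038). Its light arrays did not overlap, and the call was lost in 10 of the 12 fits with 1 array left out, where the adjusted p reached 0.15 and the interaction ran from -2.07 to -1.70. BGLU28, SDI1 and GGCT2-1 were called in all 12 of these fits and SHM7 in 9.

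Other light-level genes had the same course without being on the sulfur list. LTL1 (At3g04290), a GDSL-type lipase, ranged from 248 to 392 in dcl1-9 light and from 6.80 to 11.2 in dcl1-9 dark, against 6.11 to 37.2 in WT light and 7.43 to 9.88 in WT dark, an 18.0-fold light difference (9.19 with 16 added) with an interaction of -4.16 (SE 0.66, adjusted p = 0.023). PYD4 (At3g08860), an aminotransferase of pyrimidine breakdown, read 436, 287 and 339.8 in dcl1-9 light and 14.7 to 25.5 in WT light, and came down to 27.9 to 45.2 in dcl1-9 dark against 10.8 to 33.4 in WT dark (interaction -3.23, SE 0.50, adjusted p = 0.018). NUDT24 (At5g19470), a nudix hydrolase, and CSLG3 (At4g23990), of the cellulose synthase-like family, were 9.52 and 6.67-fold higher in dcl1-9 in light (NUDT24 5.85-fold with 16 added). Their arrays overlapped in darkness, and their interactions were -3.66 (SE 0.53, adjusted p = 0.017) and -2.76 (SE 0.46, adjusted p = 0.032). In NUDT24 the dcl1-9 light replicates were uneven, at 384, 119 and 174, and so they were in CSLG3, at 355, 144 and 207. Replicate 1 of dcl1-9 light held the highest value for 9 of the 14 genes. Without it 24 of the 29 calls were kept.

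At1g12030, a protein of unknown function (DUF506), stood at 17.4, 19.2 and 22.7 in WT light, 22.4, 11.0 and 17.3 in WT dark, 98.9, 104.7 and 123 in dcl1-9 light and 14.5, 15.0 and 14.6 in dcl1-9 dark. The mutant light arrays alone were high, 5.51-fold over the WT (3.48 with 16 added), and the interaction was -2.61 (SE 0.32, adjusted p = 0.0054). At1g73325, of the Kunitz family of protease inhibitors, differed in that darkness lowered it in both genotypes, at 103, 63.0 and 42.3 in WT light, 16.7, 14.7 and 16.6 in WT dark, 311, 361 and 336 in dcl1-9 light and 13.5, 10.4 and 10.4 in dcl1-9 dark. The light arrays of dcl1-9 lay above those of the WT, while the dark arrays lay below them, each without overlap. The fall in darkness was 4.07-fold in the WT and 29.5-fold in dcl1-9 (2.56 and 12.8 with 16 added, interaction -2.86, SE 0.36, adjusted p = 0.0054). At1g75280, an NmrA-like protein, had low signals, at 25.3 to 44.5 in dcl1-9 light and 4.46 to 8.28 in WT light, and an interaction of -2.63 (SE 0.40, adjusted p = 0.017).

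In 2 of the 14 genes with the higher light level in dcl1-9 the response to darkness was larger in the WT. AAP1 (At1g58360), an amino acid permease, was at 247, 269 and 227 in WT light, 629, 624 and 579 in WT dark, 508, 648 and 625 in dcl1-9 light and 590.1, 656 and 478 in dcl1-9 dark. WT light was the low group, and the other groups overlapped. Darkness raised AAP1 2.47-fold in the WT, and in dcl1-9, where the light level already stood 2.39-fold above the WT, its dark response was -0.05 (SE 0.14, adjusted p = 0.85). The interaction was -1.36 (SE 0.20, adjusted p = 0.017). ST2A (At5g07010), a sulfotransferase of hydroxyjasmonate, stood at 338, 339 and 339 in WT light, 1353, 1418 and 1205 in WT dark, 771, 876 and 797 in dcl1-9 light and 1379, 1770.4 and 1523 in dcl1-9 dark. It rose in both genotypes, by log2 1.97 in the WT and 0.93 in dcl1-9, from light levels that did not overlap to dark levels that did (interaction -1.04, SE 0.17, adjusted p = 0.029). AAP1 was called in 7 and ST2A in 4 of the 12 fits with 1 array left out.

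At4g25433, a LysM domain protein, was the settled light-level gene with the lower level in dcl1-9. It stood at 32.2, 20.1 and 25.6 in WT light, 6.07, 4.39 and 6.27 in WT dark, 6.86, 5.95 and 8.91 in dcl1-9 light and 10.5, 7.26 and 9.48 in dcl1-9 dark. WT light was the high group, and the light difference of -1.84 (SE 0.26, adjusted p = 0.0013) was not seen in darkness, where dcl1-9 was the higher by log2 0.70 (adjusted p = 0.11). The interaction was 2.54 (SE 0.36, adjusted p = 0.016).

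**Figure D2:**
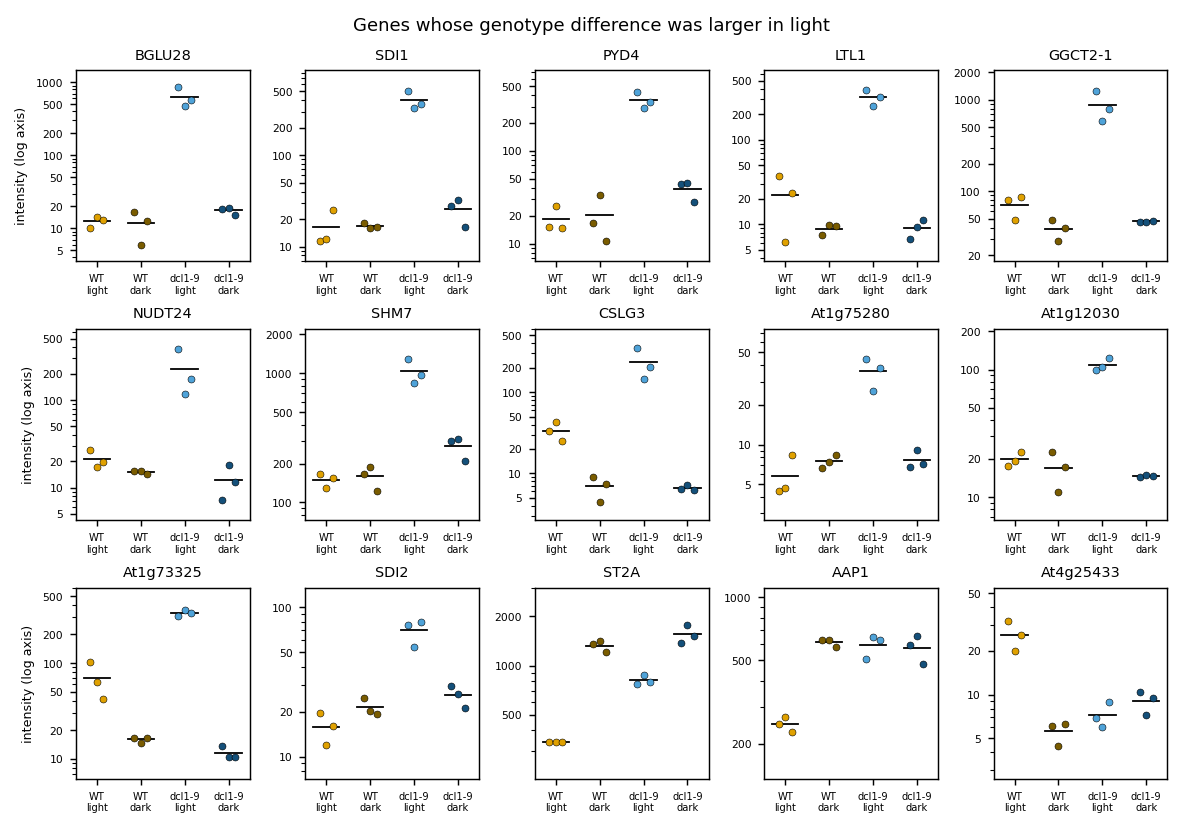
Intensity (log axis) of the 15 settled light-level genes in every array, with points for replicates, columns for WT light, WT dark, dcl1-9 light and dcl1-9 dark, and bars for group means. In 12 of the panels dcl1-9 light is the one high group, while WT light is low in AAP1 and ST2A and high in At4g25433.

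Genes of the dark level were mostly genes that darkness raised in the WT and raised less or not at all in dcl1-9. Of the 9 settled ones, 8 were lower and 1 was higher in dcl1-9 in darkness. The median log2 difference was -1.95 in darkness and -0.24 in light. The choice of these genes fixed the counts here in the same way, and nothing is read from them. All 9 were called between the genotypes in darkness (7.46% of all probe sets were) and 0 in light (9.25%). Their arrays did not overlap for 9 of 9 in darkness (32.1% of all probe sets) and 3 of 9 in light (32.6%). Darkness raised all 8 lower genes in the WT (12.8% of all probe sets rose), by log2 1.24 to 4.39, and 5 of them in dcl1-9 (10.8%), where the responses ran from -0.39 to 2.05. Replicate 3 of WT dark held the highest value for 6 of the 9.

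At2g25770, annotated as a polyketide cyclase or lipid transport protein, read 233, 161 and 240.1 in WT dark against 19.9 to 22.8 in dcl1-9 dark, with all 6 light arrays at 17.4 to 23.6 and 15.8 to 17.6. At5g60260, a protein of unknown function, had the same shape, at 14.9, 18.7 and 20.5 in WT light, 139, 106 and 127 in WT dark, 13.1, 11.6 and 12.8 in dcl1-9 light and 16.8, 19.2 and 23.5 in dcl1-9 dark. WT dark was the high group, 6.29-fold over dcl1-9 dark (3.91 with 16 added), and the interaction was -2.13 (SE 0.27, adjusted p = 0.0054). Both genes were called in all 12 fits with 1 array left out. GDPD2 (At5g41080), a glycerophosphodiester phosphodiesterase that frees phosphate from phospholipid remains, was at 140.4, 106 and 157 in WT light, 701, 678 and 1116 in WT dark, 125, 173 and 219.9 in dcl1-9 light and 123, 99.9 and 221 in dcl1-9 dark. The 3 groups other than WT dark overlapped. Darkness raised GDPD2 6.11-fold in the WT, whereas its response in dcl1-9 was -0.27 (SE 0.29, adjusted p = 0.59), with an interaction of -2.88 (SE 0.41, adjusted p = 0.016).

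CKX5 (At1g75450), a cytokinin oxidase that degrades cytokinins, rose in both genotypes but to different heights, at 9.27, 10.2 and 5.85 in WT light, 107, 112 and 114.1 in WT dark, 8.07, 7.49 and 8.13 in dcl1-9 light and 29.2, 31.8 and 37.3 in dcl1-9 dark. The light arrays overlapped and the dark arrays did not. The rise was 13.5-fold in the WT and 4.13-fold in dcl1-9 (5.21 and 2.04 with 16 added, interaction -1.71, SE 0.29, adjusted p = 0.043). GLYI4 (At1g15380), of the glyoxalase I family that detoxifies methylglyoxal, stood at 7.96, 7.52 and 5.75 in WT light, 119, 99.7 and 269.6 in WT dark, 8.45, 7.76 and 8.16 in dcl1-9 light and 20.2, 17.4 and 30.9 in dcl1-9 dark. The WT dark arrays lay above those of dcl1-9 and were the least even group, and the interaction was -2.95 (SE 0.45, adjusted p = 0.018). HSFA7A (At3g51910), a heat shock transcription factor, stood at 12.3, 18.0 and 16.4 in WT light, 104, 76.0 and 84.9 in WT dark, 10.8, 11.8 and 11.6 in dcl1-9 light and 23.1, 21.1 and 23.8 in dcl1-9 dark. It was lower in dcl1-9 in darkness without overlap, 3.86-fold, and its interaction of -1.52 (SE 0.27, adjusted p = 0.049) was the closest to the threshold among the 29. CKX5 was called in 1, HSFA7A in 2 and GLYI4 in 6 of the 12 fits with 1 array left out, in which the interaction of CKX5 ran from -1.87 to -1.47.

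PP2-A14 (At5g52120), a phloem protein 2-like gene with a smaller range, was at 60.1, 44.8 and 46.8 in WT light, 118, 116 and 120.1 in WT dark, 52.0, 48.5 and 59.6 in dcl1-9 light and 34.7, 42.8 and 45.1 in dcl1-9 dark. WT dark alone was raised, by log2 1.24 (SE 0.17, adjusted p = 5.9e-05), and the response in dcl1-9 was -0.39 (SE 0.17, adjusted p = 0.12). The interaction was -1.63 (SE 0.24, adjusted p = 0.017). At4g28085, of unknown function, stood at 20.8, 26.0 and 19.5 in WT light, 175, 152 and 208 in WT dark, 17.5, 17.6 and 20.8 in dcl1-9 light and 37.8, 49.8 and 59.0 in dcl1-9 dark. It rose in both genotypes and less so in dcl1-9, with no overlap in darkness, and its interaction of -1.64 (SE 0.28, adjusted p = 0.043) was called in 3 of the 12 fits. The exception in direction was At5g21100, an ascorbate oxidase of the cell wall, which fell in darkness in both genotypes, at 194, 167 and 206 in WT light, 17.7, 17.6 and 12.7 in WT dark, 138, 135 and 153 in dcl1-9 light and 34.7, 43.6 and 34.5 in dcl1-9 dark. It kept more transcript in dark-treated dcl1-9 leaves, 2.36-fold over the WT without overlap (interaction 1.65, SE 0.25, adjusted p = 0.017).

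For 5 genes the side was not settled, because the genotype differences in light and darkness had opposite signs and their mean did not pass the test. SFP1 (At5g27350), of a sugar transporter family, went up in darkness in the WT and down in dcl1-9, at 118, 98.7 and 168 in WT light, 219.8, 242 and 203 in WT dark, 232, 235 and 311 in dcl1-9 light and 118, 152 and 112 in dcl1-9 dark. The mutant was higher in light by log2 1.04 (adjusted p = 0.0077) and lower in darkness, with a log2 difference of -0.81 (adjusted p = 0.026), and no array overlapped between the genotypes in either condition. Its interaction was -1.85 (SE 0.28, adjusted p = 0.018). SIP1;2 (At5g18290), an aquaporin of internal membranes, stood at 92.3, 102 and 126 in WT light, 137, 157 and 175 in WT dark, 265, 150.5 and 195 in dcl1-9 light and 92.0, 78.6 and 82.9 in dcl1-9 dark. It crossed in the same way, with genotype differences of 0.91 in light and -0.88 in darkness that both passed (adjusted p = 0.014 and 0.017), and its interaction was -1.79 (SE 0.28, adjusted p = 0.02).

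NSP5 (At5g48180), a nitrile specifier protein that steers glucosinolate breakdown towards nitriles, was at 37.5, 34.6 and 45.0 in WT light, 54.1, 54.7 and 143 in WT dark, 137, 104 and 143 in dcl1-9 light and 37.8, 49.9 and 48.1 in dcl1-9 dark. Darkness raised NSP5 in the WT by log2 0.95 (adjusted p = 0.029) and lowered it in dcl1-9 by a log2 change of -1.50 (adjusted p = 0.0019). Replicate 3 of WT dark was far above the other WT dark arrays, and the call (interaction -2.45, SE 0.43, adjusted p = 0.047) was kept in 2 of the 12 fits. The remaining ones fell in darkness in both genotypes. At4g30660, of a low temperature and salt responsive family, was at 530.3, 531 and 532 in WT light, 86.5, 105.1 and 103 in WT dark, 303, 444 and 372 in dcl1-9 light and 172, 211 and 168 in dcl1-9 dark, with lower light and higher dark values in dcl1-9 and an interaction of 1.43 (SE 0.22, adjusted p = 0.02). At1g21440, of the phosphoenolpyruvate carboxylase family, had genotype differences of -1.05 in light and 0.53 in darkness and was called in all 12 fits.

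**Figure D3:**
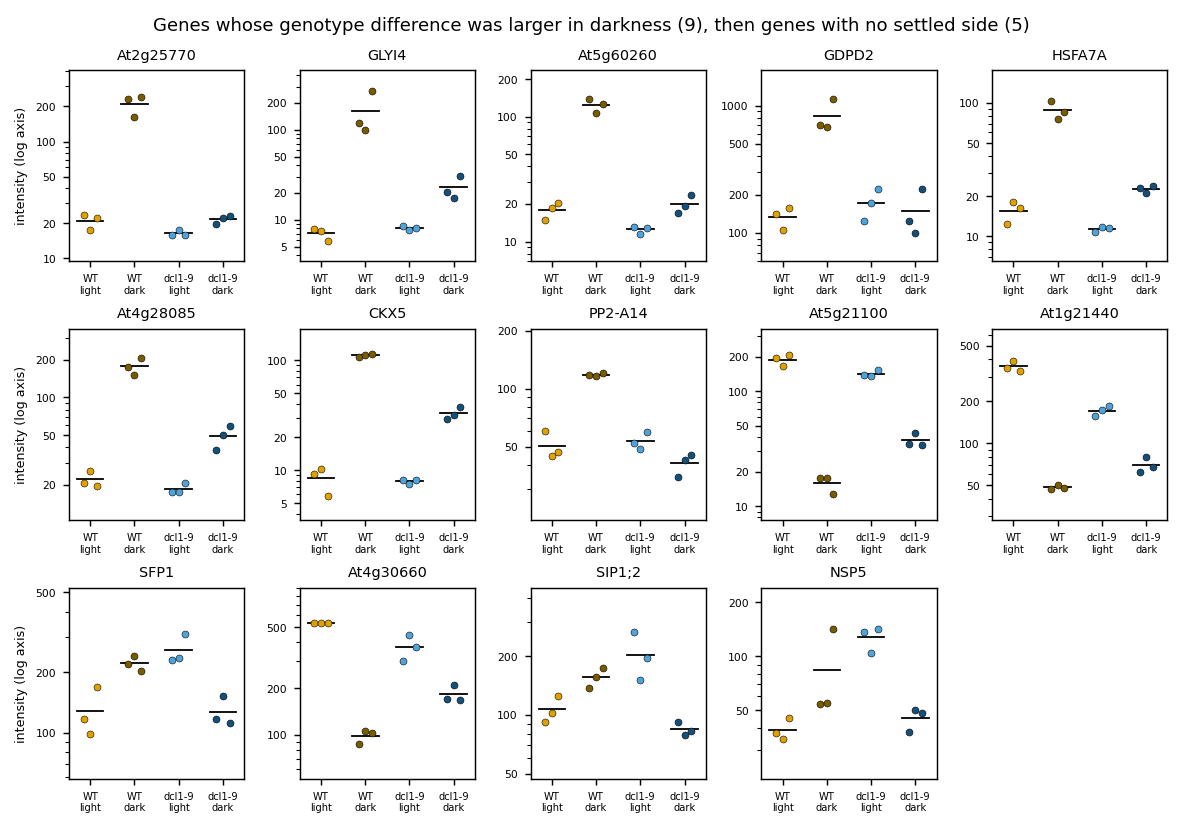
Intensity (log axis) in every array for the 9 settled dark-level genes and then the 5 genes with no settled side, with points for replicates, columns for the 4 groups and bars for group means. In 8 of the first 9 panels WT dark is the high group, the ninth (At5g21100) has its lowest values in WT dark, and in SFP1 and SIP1;2 the genotypes change order between light and darkness.

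On the scale of untransformed intensity the difference of differences had the same sign as on the log2 scale for 29 of 29 genes. All 29 had at least 1 group mean above 20, and 18 also had a group mean under 20. Just inside the threshold stood HSFA7A (adjusted p = 0.049), and just outside it At5g23750, a remorin, At2g20835, of unknown function, and KDR (At1g26945), a basic helix-loop-helix protein, with interactions of -1.60, -1.70 and 1.75 (adjusted p = 0.051 each). Another 29 genes had an adjusted p between 0.05 and 0.1, 17 of the light and 12 of the dark level.

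Gene lists were read by counts and medians, beside the 5.73% of all probe sets at an unadjusted p under 0.05 and the median interaction of 0.001. Among all probe sets 5.92% were called higher and 3.33% lower in dcl1-9 in light, and 4.45% and 3.02% in darkness. Of all genes past the test for the mean dark response, 61.5% responded less in dcl1-9. Of 29 genes of sulfate uptake, assimilation and sulfur deficiency, 20 (69.0%) had an unadjusted p under 0.05, 15 lower and 5 higher, and 5 were lower past the adjusted threshold. Their median interaction was -0.71. Relative to all probe sets the median difference of dcl1-9 from the WT was 1.06 in light and 0.39 in darkness, and 17 members were called higher in light against 6 in darkness. Of the 20 genes 18 belonged to the light level. Besides the genes above, LSU1 (At3g49580), a gene named for its response to low sulfur, stood at 6.45, 9.08 and 23.1 in WT light, 4.77, 3.97 and 7.74 in WT dark, 219, 149 and 236 in dcl1-9 light and 14.0, 14.7 and 7.29 in dcl1-9 dark. It was high in dcl1-9 light alone, and its interaction was -3.04 (SE 0.59, adjusted p = 0.086). The members with the higher interaction were APS1, APS2, APK1, APK2 and SIR, which activate sulfate and reduce sulfite. The precursor gene MIR395E (At1g69795) of miR395, which targets sulfate assimilation and transport genes, stood at 5.00, 5.20 and 4.46 in WT light, 3.00, 6.01 and 3.46 in WT dark, 86.4, 38.4 and 78.4 in dcl1-9 light and 16.1, 6.26 and 3.31 in dcl1-9 dark, with an interaction of -2.90 (SE 0.66, adjusted p = 0.16) and a light difference of 3.71 (SE 0.47, adjusted p = 5.6e-04).

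Aliphatic glucosinolate synthesis had a median of the opposite sign. Of 26 measured genes 17 (65.4%) had an unadjusted p under 0.05, 16 higher and 1 lower, and 0 passed the adjusted threshold. The median interaction was 1.26, and 16 of the 17 were of the light level. Relative to all probe sets the list stood at -0.89 in light and 0.14 in darkness, and 15 members were called lower in dcl1-9 in light against 1 in darkness. Of 23 members past the test for the mean dark response, 22 responded less in dcl1-9, against 61.7% of all repressed genes. IPMI1 (At3g58990), of the chain elongation of methionine, was at 702, 917 and 714 in WT light, 23.4, 81.0 and 19.4 in WT dark, 223, 153 and 107 in dcl1-9 light and 25.4, 55.9 and 25.9 in dcl1-9 dark. WT light was the high group, dcl1-9 light lay between it and the dark arrays, and the dark arrays overlapped. Its light difference was -2.33 (SE 0.45, adjusted p = 0.0079) and its interaction 2.33 (SE 0.64, adjusted p = 0.31). BCAT4 (At3g19710) and IPMI2 (At2g43100), of the same pathway, had light differences of -2.83 (SE 0.64, adjusted p = 0.017) and -2.48 (SE 0.43, adjusted p = 0.004). In MYB29 (At5g07690), a transcription factor of aliphatic glucosinolates, no difference in light or darkness passed (interaction 1.85, SE 0.63, adjusted p = 0.56). The dark arrays of replicate 2 stood above replicates 1 and 3 in both genotypes for these 4 genes, for BCAT4 at 174 against 24.7 and 31.5 in the WT.

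Of 11 genes of indolic glucosinolate synthesis 2 were higher at an unadjusted p under 0.05, with a median interaction of 0.30. MYB122 (At1g74080), a regulator of indolic glucosinolates, stood at 32.7, 33.4 and 29.2 in WT light, 36.5, 32.0 and 28.7 in WT dark, 19.6, 24.0 and 25.1 in dcl1-9 light and 70.4, 52.3 and 57.8 in dcl1-9 dark, and it was higher in dcl1-9 in darkness without overlap (dark difference 0.89, SE 0.18, adjusted p = 0.0099, interaction 1.37, SE 0.25, adjusted p = 0.06). Among 13 genes of glucosinolate breakdown, BGLU28 and NSP5 passed the adjusted threshold, and the median was 0.21. NIT3 (At3g44320) and NIT2 (At3g44300), nitrilases, had interactions of opposite sign, -1.50 (SE 0.34, adjusted p = 0.15) and 1.16 (SE 0.51, adjusted p = 0.82).

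The lists of SnRK1 and dark-inducible markers and of amino acid catabolism, which starvation raises, had negative median interactions. Other lists whose median rose in darkness in the WT differed in sign, with autophagy at -0.15, expansins and xyloglucan endotransglucosylases at 0.02 and SAUR genes at 0.06. Of 78 SAUR genes 11 were higher and 2 lower at an unadjusted p under 0.05. Among the 39 dark-responsive ones 12 responded less in dcl1-9 (61.5% of all dark-responsive genes did). Of 21 SnRK1 and dark-inducible markers, 0 passed the adjusted threshold, and 6 (28.6%) were lower at an unadjusted p under 0.05, 5 of them of the dark level. The median interaction was -0.47, from relative differences of 0.15 in light and -0.23 in darkness. Of 19 members past the test for the mean dark response, 18 responded less in dcl1-9 (61.2% of all induced genes did), and 4 members were called lower in dcl1-9 in darkness (3.02% of all probe sets). PRODH1 (At3g30775), a proline dehydrogenase, was at 649.8, 367 and 683 in WT light, 1615, 1629 and 1516 in WT dark, 397, 370.0 and 754 in dcl1-9 light and 575, 406 and 662 in dcl1-9 dark. Its light arrays overlapped, WT dark was the high group, and its dark difference was -1.56 (SE 0.28, adjusted p = 0.005) with an interaction of -1.38 (SE 0.39, adjusted p = 0.35). BGAL4 (At5g56870), a sugar-repressed beta-galactosidase, read 649, 679 and 698 in WT dark and 125, 165 and 313 in dcl1-9 dark, without overlap.

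Amino acid catabolism had 15 of 39 genes (38.5%) lower and 0 higher at an unadjusted p under 0.05, 7 of the light and 8 of the dark level, and 0 past the adjusted threshold. Its median interaction of -0.55 was made up of a relative difference of 0.23 in light and -0.29 in darkness, with 6 members called higher in light (5.92% of all probe sets) and 7 called lower in darkness (3.02%). THA1 (At1g08630), a threonine aldolase, stood at 41.5, 41.3 and 26.8 in WT light, 484, 357 and 809 in WT dark, 90.4, 48.4 and 48.2 in dcl1-9 light and 213, 160.1 and 358 in dcl1-9 dark, with an interaction of -1.91 (SE 0.49, adjusted p = 0.24). The light arrays of dcl1-9 lay above those of the WT without overlap, by log2 0.73 (adjusted p = 0.18), and the dark arrays lay below with 1 overlapping value, at a difference of -1.17 (adjusted p = 0.052). BCE2 (At3g06850), also known as DIN3, a subunit of the branched-chain keto acid dehydrogenase, ranged from 352 to 619.8 in WT dark and from 189 to 272 in dcl1-9 dark (dark difference -0.89, SE 0.22, adjusted p = 0.024).

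Of 19 starch breakdown genes 9 were called higher in dcl1-9 in light (5.92% of all probe sets) and 10 in darkness (4.45%), and 0 lower, at relative medians of 0.85 and 0.78, and the median interaction was 0.13. Of these genes 5 had a higher and 2 a lower interaction at an unadjusted p under 0.05. MEX1 (At5g17520), the maltose exporter of the chloroplast, stood at 704, 610.4 and 808 in WT light, 171, 215 and 139 in WT dark, 634, 645 and 642 in dcl1-9 light and 363, 385 and 312 in dcl1-9 dark. The light arrays overlapped, dcl1-9 dark lay above WT dark without overlap, and the interaction was 1.17 (SE 0.23, adjusted p = 0.089). The beta-amylases BAM5 (At4g15210) and BAM6 (At2g32290) were instead on the light level, with light differences of 1.94 (SE 0.35, adjusted p = 0.0052) and 1.54 (SE 0.25, adjusted p = 0.003) and interactions of -2.05 and -1.76 (adjusted p = 0.2 and 0.091).

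Of 17 lists whose median fell in darkness in the WT, the median interaction was above 0 for 11 and below 0 for 6. Of 346 cytosolic and organellar ribosomal protein genes, 21 were higher and 2 lower at an unadjusted p under 0.05 (6.65%, near the background), and the median interaction was 0.18. Among the 234 of them past the test for the mean dark response, 195 responded less in dcl1-9 (61.5% of all dark-responsive genes did), with relative medians of -0.15 in light and 0.04 in darkness over all 346. Of 17 dark-responsive endoplasmic reticulum chaperone genes 15, and of 12 dark-responsive chlorophyll synthesis genes 11, responded less in dcl1-9, beside the same 61.5%, at median interactions of 0.41 and 0.21 over their lists. For 18 cytosolic heat shock protein genes the interaction was positive at an unadjusted p under 0.05 in 6 and negative in 0, with 0 past the adjusted threshold and a median of 0.36. Lists on the other side, with medians below 0, included flavonoid and anthocyanin synthesis at -0.20 and salicylate signaling and PR genes at -0.41. Of their dark-responsive genes 5 of 18 and 3 of 10 responded less in dcl1-9, beside the same 61.5%. In both lists 0 genes had an unadjusted p under 0.05 (5.73% of all probe sets), so no single gene bears these medians out.

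MIR genes and targets of miRNAs had median interactions near that of all probe sets, but larger shares at an unadjusted p under 0.05 (5.73% of all probe sets). Of 172 MIR genes 15 (8.72%) had an unadjusted p under 0.05, 11 lower and 4 higher, and the median interaction was -0.02. MIR157C (At3g18217) had a light difference of 2.39 (adjusted p = 4.9e-05) and an interaction of -1.65 (SE 0.32, adjusted p = 0.087). MIR824A (At4g24415) changed in darkness by log2 -0.96 in the WT and 0.02 in dcl1-9 (interaction 0.98, SE 0.285, adjusted p = 0.39). By quantitative RT-PCR the study also found a weaker dark decline of MIR824A in the mutant. Targets of miRNAs counted 15 of 86 (17.4%), 9 higher and 6 lower, with a median of -0.06. SPL9 (At2g42200), a factor of developmental phase under miR156, stood at 76.0, 44.7 and 60.9 in WT light, 29.6, 26.6 and 26.7 in WT dark, 107, 119 and 129 in dcl1-9 light and 28.6, 28.1 and 27.3 in dcl1-9 dark, with a higher level in dcl1-9 in light without overlap and overlapping dark arrays (interaction -0.97, SE 0.26, adjusted p = 0.31). SNZ (At2g39250), an AP2-type factor under miR172, was lower in dcl1-9 in light by a log2 difference of -2.19 (SE 0.24, adjusted p = 1.4e-04). The growth regulators TCP4 (At3g15030) and TCP2 (At4g18390), targets of miR319 which the study singled out, had interactions of 0.69 (SE 0.22, adjusted p = 0.47) and 0.55 (SE 0.20, adjusted p = 0.67). The study picked them by fold-changes on these arrays, not by this test. By quantitative RT-PCR it found their dark repression weaker in dcl1-9 and in plants with reduced miR319 activity. On the arrays TCP4 and TCP2 were higher in dcl1-9 in darkness without overlap, by log2 0.54 (adjusted p = 0.046) and 0.58 (adjusted p = 0.028). Their light arrays overlapped.

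**Figure D4:**
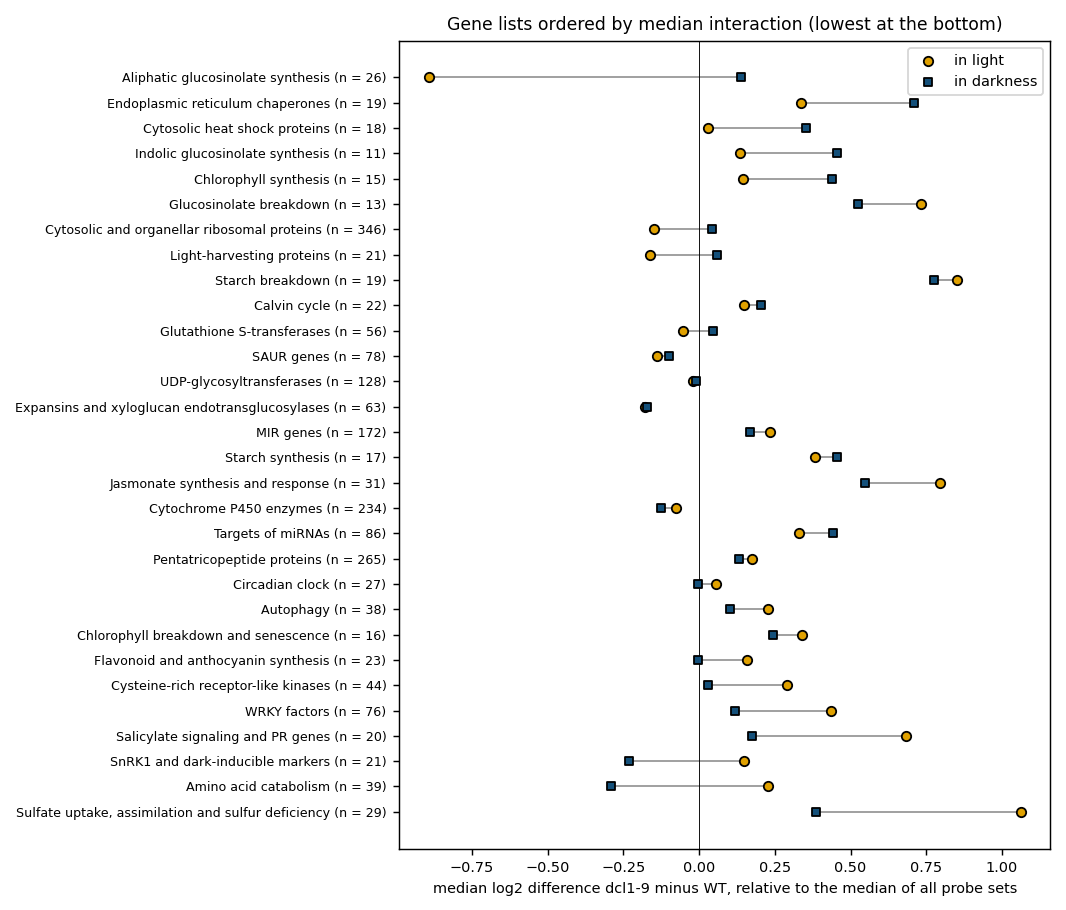
Median log2 difference of dcl1-9 from the WT in light (circles) and darkness (squares), relative to the median over all genes, for each gene list, with the number of measured genes and the lists ordered by median interaction. The sulfur list at the bottom lies at 1.06 in light and 0.39 in darkness, and the aliphatic glucosinolate list at the top at -0.89 and 0.14.

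Across all genes, the dark response was smaller in dcl1-9 more often than larger. Of 10103 genes past the test for the mean dark response (36.3% of all probe sets), 61.5% had an interaction opposite in sign to that response. The share was 61.2% of 4906 induced and 61.7% of 5197 repressed genes, and 51.9% among genes not past the test. It rose with the size of the response among induced genes, from 57.2% of 1233 genes with a mean response under 0.5 to 70.3% of 128 genes with 3 or more. No such order was seen among repressed genes, where it was 64.9% in the lowest class and 55.1% of 107 genes in the highest. Genes are not independent replicates, so these shares are a description of these arrays. The share was 62.5% in genes with a mean intensity of 20 or more and 51.7% under 20, and it was 55.6%, 57.1% and 59.4% in the arrays of replicate number 1, 2 and 3 taken alone.

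For strongly induced genes, the smaller response lay at the dark level. In the class with a mean response of 2 to 3, the median relative difference of dcl1-9 from the WT was 0.02 in light and -0.26 in darkness, and with 3 or more it was 0.01 and -0.26. Repressed genes stood above the median of all probe sets in dcl1-9 in both conditions, at 0.18 in light and 0.25 in darkness for a response of 2 to 3. In their strongest class the order turned, with 0.31 in light and 0.25 in darkness. Among the 1595 genes at an unadjusted p under 0.05, 790 were of the light and 805 of the dark level. Of the settled ones 151 were higher and 129 lower in dcl1-9 in light, and 101 were higher and 205 lower in darkness.

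**Figure D5:**
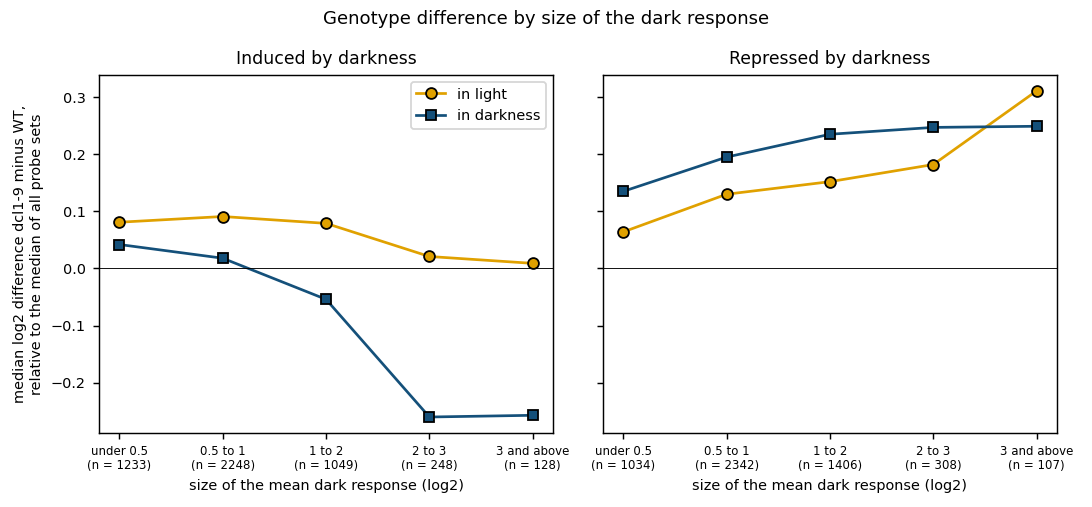
Median log2 difference of dcl1-9 from the WT, relative to all probe sets, in light (circles) and darkness (squares), by the size of the mean dark response, for genes induced (left) and repressed (right) by darkness, with the number of genes in each class. In induced genes the dark values drop from 0.04 to -0.26 while the light values stay between 0.01 and 0.09.

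Markers of leaf cell types were measured beside these results. The summed intensity of 5 mesophyll markers ran from 4535 to 5352 in WT dark and from 5691 to 6092 in dcl1-9 dark, and the ranges of the light groups overlapped. The summed level of 5 epidermis markers was 797 to 1541 in WT light and 1639 to 2242 in dcl1-9 light, and 860 to 986 in WT dark and 1191 to 1409 in dcl1-9 dark, with PDF1 and CER1 under 20 in every group. The sums of 2 myrosin cell markers, 5 guard cell markers and 4 phloem markers were 1514 to 2697, 209 to 356 and 574 to 1097 in the WT and 2875 to 3532, 306 to 567 and 547 to 911 in dcl1-9. Of 5 meristem markers WUS, CYCB1-1 and KNOLLE, and of 5 flower markers AP1, AP3 and AG, were under 20 in every group. The flower gene PI (At5g20240) was not under 20 in every group, at 81.6, 32.4 and 84.7 in WT dark and 9.56, 9.53 and 13.6 in dcl1-9 dark (interaction -2.46, SE 0.49, adjusted p = 0.089). The part of cell type composition in the interaction was not tested.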

How the data were processed

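Leaf RNA of 12 samples was measured on Arabidopsis Gene 1.1 ST arrays. The authors' deposited values are linear intensities per gene, made with dChip from perfect-match probes, a Brainarray custom probe grouping and invariant-set normalization of all arrays to a baseline array, after quality control in Affymetrix Expression Console. An authors' table of comparisons repeats these intensities (largest difference 0.0), and its weighted means, fold-changes and bounds were not used, with 0 array columns left out. Genes were named by locus, of which 27241 (97.9%) matched RefSeq, and symbols are those of the deposited table, of RefSeq or of the gene lists used here.

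Values under 1 were set to 1 before log2. Group means of all 4 groups were fitted in limma 3.58.1 (R 4.3.3) with variances following intensity and 8 residual degrees of freedom before moderation, p-values were adjusted by Benjamini-Hochberg over all 27827 probe sets, and calls were made at 0.05. SEs and p-values of genotype differences belong to differences against 0, not to values relative to all probe sets. The fit was tested on simulated data. Genes given with their values were those past the test and some of those just beyond it. Added to these were in each list at most 4 members of largest interaction at an unadjusted p under 0.05, and some of the genes the study names. The comparison, its members and the gene lists were chosen with earlier results of these data known. The labels call the replicates biological and do not say how plants were pooled, so p-values measure the spread between these samples. Alternatives covered the log scale, normalization, low intensities, variances, array weights, replicate number and single arrays. Probe-level background correction was not redone.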

Additional observations from a re-analysis of the deposited data

Results flagged for a closer look

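The dark responses of the genotypes differed by the interaction test for each of the 29 genes that passed limma at an adjusted p of 0.05, which is the reason each is listed here with its interaction (dcl1-9 minus WT, log2). Among genes settled at the light level, BGLU28 stood at -4.93, LTL1 at -4.16, SDI1 at -4.12, NUDT24 at -3.66, GGCT2-1 at -3.31 and PYD4 at -3.23. At1g73325 followed with -2.86, CSLG3 with -2.76, At1g75280 with -2.63, At1g12030 with -2.61, SHM7 with -1.998, SDI2 with -1.90, AAP1 with -1.36 and ST2A with -1.04, and At4g25433 was positive at 2.54. Among genes settled at the dark level, GLYI4 stood at -2.95, At2g25770 at -2.92, GDPD2 at -2.88, At5g60260 at -2.13, CKX5 at -1.71, At4g28085 at -1.64, PP2-A14 at -1.63 and HSFA7A at -1.52, and At5g21100 was positive at 1.65. Without a settled side were NSP5 at -2.45, SFP1 at -1.85, SIP1;2 at -1.79, At1g21440 at 1.59 and At4g30660 at 1.43. Outlying arrays within a group were not tested, since each group held 3.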

How the results depend on the processing

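Direction was kept in all settings. Each of the 29 genes (27 of 27 present with low intensities left out) had the same sign of its interaction in all 19 other fits. In each fit that held them all, 28 or 29 kept their side. The replicate block and the variances without trend leave the interaction estimates unchanged in this balanced design, so their signs could not differ. Since the 29 genes were picked by this interaction, a kept sign elsewhere says little. Counts moved far more, and the cause was not tested. Against 29 genes (25 lower, 4 higher; 19 light level, 10 dark level; 15 with the larger response in dcl1-9, 14 with the smaller), log2(value + 16) gave 66 (50 and 16; 40 and 26; 28 and 38), array weights 110 (79 and 31; 57 and 53; 37 and 73), variances without the intensity trend 15 (12 lower; 9 and 6; 7 and 8) and quantile normalization 39 (10 higher, 19 dark level, 24 smaller). Median centring gave 28 with 7 higher, and a minimum mean intensity of 20 gave 35 with 16 of the dark level. At an adjusted p of 0.1 there were 58 genes (43 lower, 15 higher), and at 0.01 there were 8 (7 and 1). Leaving out 1 array at a time gave 8 to 39 genes, 7 to 32 lower, 1 to 13 higher, 6 to 25 light level, 2 to 16 dark level, 5 to 17 larger and 3 to 25 smaller. The 8 genes called in all 12 of these fits were At2g25770, BGLU28, SDI1, GGCT2-1, At1g12030, At1g73325, At5g60260 and At1g21440. Further genes of the lists, at an unadjusted p under 0.05 but not called, were followed singly too. They passed in 11 of 1092 values with 1 array left out and in 30 of 616 under the other settings. Counts of 0 list members past the adjusted threshold therefore belong to the main fit. List medians were computed again only for median centring, quantile normalization, the replicate block and single arrays left out. Of these 450 medians 414 moved by less than the SD between replicate numbers. The block could not move a median in this balanced design.

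The share of dark-responsive genes with the smaller response in dcl1-9, 61.5%, was 65.2% after quantile normalization, 65.3% with array weights and 56.8% (without dcl1-9 light replicate 3) to 65.1% with single arrays left out. By replicate number alone it was 55.6%, 57.1% and 59.4%.

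With the replicate number as a block 77 genes passed (56 lower, 21 higher; 44 light level, 33 dark level; 30 larger, 47 smaller), and all 29 were among them. The labels and methods do not say what a number shares, though the authors' table carries the same 3 run numbers in all 4 groups. Pairs of the same number correlated in their deviations at 0.031 to 0.237 for number 1, 0.109 to 0.299 for number 2 and 0.197 to 0.337 for number 3, and 12 of 12 arrays correlated best with their own number. This is a hint that the numbers mark shared runs, and the calls above were made without them.

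A search for promoter motifs was not run, since promoter sequences were not used here. With 3 arrays per group the median SE of an interaction was 0.316, against an interquartile range of the interaction from -0.219 to 0.212, and 34.8% of probe sets had low signals.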
